A study of Arabidopsis thaliana with 6 samples.

Results

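The cytosolic ribosome of plants has a small (40S) and a large (60S) subunit, and the genes described here encode 7 proteins of the 40S subunit in Arabidopsis thaliana: S2 (AT2G41840), S4 (AT2G17360), S12 (AT2G32060), S20 (AT3G47370), S25 (AT2G21580), S26 (AT2G40510) and S27 (AT2G45710). They were chosen by locus from the cytosolic ribosomal protein genes on the arrays, with the signals of those genes on the same 6 arrays already known, so their values are given as a description and without a test. They are 7 of 3602 genes that had a probe set of their own, and 7 of 19 such genes for cytosolic 40S proteins. All 7 passed the filter on dim probe sets.

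The 40S subunit binds messenger RNA, decodes it and joins the 60S subunit to form the translating ribosome. Its proteins are needed in near equal numbers, and in plants each is encoded by a small family of closely related genes spread over the genome. In leaves, transcripts of these genes are known to be most abundant in young growing tissue, and their synthesis is a large cost to the cell.

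RNA came from unshaded rosette leaves of accession Ws-2, with no genetic modification, at growth stage 3.90 and 60% humidity, and each of 6 single-channel Affymetrix arrays of 8297 probe sets received 1 sample. The series is about acclimation to light intensity. An array is named by its code: CLL, CLM and CLH begin with CL, and CVL, CVM and CVH with CV, and the last letter (L, M or H) is the ending. The letters are not explained in the labels, so the arrays carry no light level here. The records of CLL and CVL state 16 hours of dark at 15 °C, which the records of the other 4 arrays lack. The number of plants pooled was left blank by the submitters. Each code had 1 array and thus no replicate, and the number of arrays limits the precision. SDs below are taken over arrays that share a start but differ in their ending. SEs come from a limma fit with start and ending as terms, moderated with the spread of all probe sets tested. An SE can thus be smaller or larger than the gene's own residual spread would give.

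The tissue label was checked against leaf genes. The signal of AT2G39730, which encodes Rubisco activase, lay between 7730.6 and 10819.5 on the 6 arrays, and those of 4 photosystem core genes between 3006.5 and 12180.6. The other 9 of the 10 leaf markers, and all 21 markers of other cell types and of senescence, had no probe set under a gene name and were not analysed here. Array medians ran from 20.0 in CVM to 26.2 in CLL. The scanner background in the labels was 56.06 to 64.52 on the CL arrays and 73.52, 56.56 and 68.77 on CVL, CVM and CVH.

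On the CV arrays the 7 genes had their highest signals at ending M and lower ones at H, whereas the CL arrays lay closer together. The highest over the lowest CL signal was 1.10 to 2.22 over the 7 genes, and the same ratio over the CV arrays was 1.36 to 4.01 and larger in each gene. Every gene was highest on CVM and next highest on CVL, an order found in 329 of the 5773 probe sets tested (5.70%). The fitted difference of CV from CL, averaged over the endings, ranged from 0.26 to 1.15 on the log2 scale over the 7 genes. Its median was 0.77, beside -0.10 over all probe sets tested. In whole leaves, a larger share of cells rich in these transcripts and more transcript per cell cannot be told apart.

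**Figure D1:**
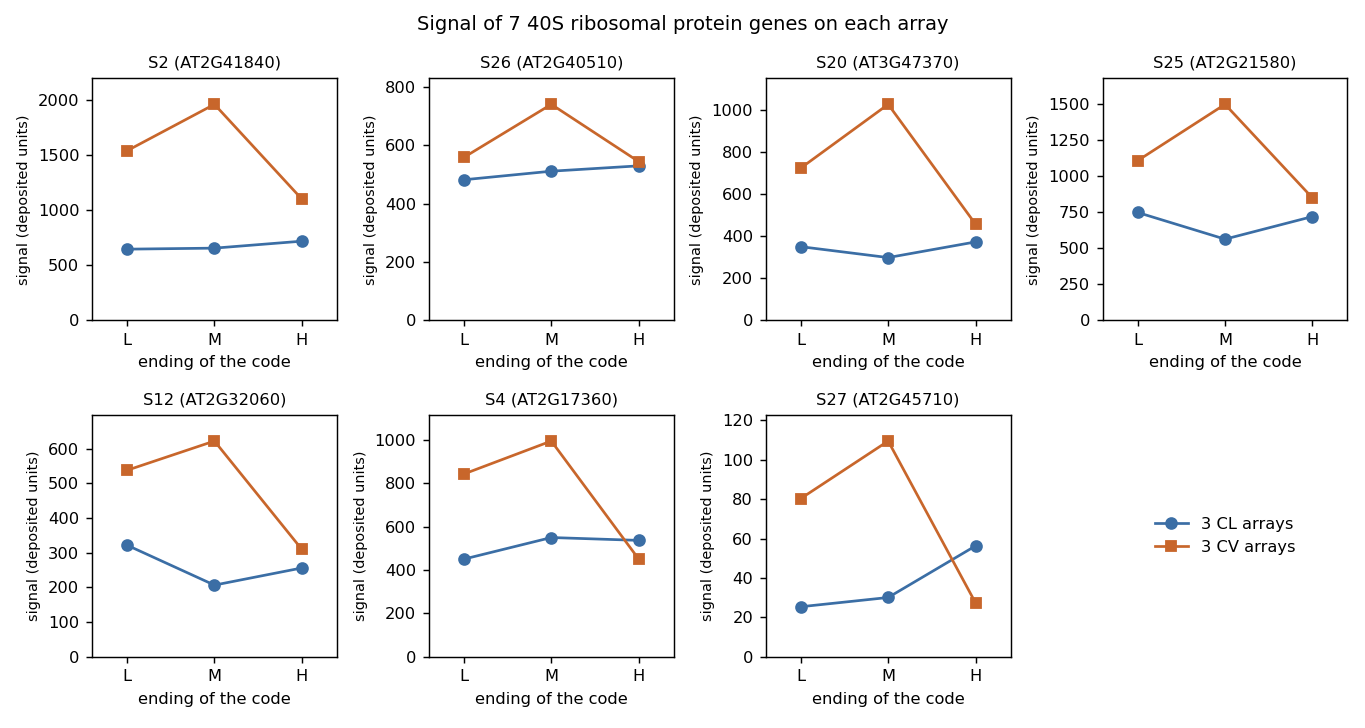
Signal in deposited units (vertical axes, from 0) of each of the 7 genes by the ending of the array code (horizontal axes), with circles for the 3 CL arrays and squares for the 3 CV arrays, 1 array per point; lines only join arrays of the same start. In each panel the highest point is CVM and the next highest CVL, while CVH is the lowest CV point in every panel.

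S2 and S26 lie along the path of the messenger RNA. S2 is known to line the entry of the mRNA channel and to bear on the accuracy of decoding. Its gene AT2G41840 had signals of 644.7 in CLL, 654.0 in CLM, 717.3 in CLH, 1538.8 in CVL, 1961.1 in CVM and 1099.5 in CVH. All 3 CV arrays lay above all 3 CL arrays, and the CL arrays differed among themselves by a factor of only 1.11. The mean was 1533 ± 431 (SD, 3 CV arrays) against 672.0 ± 39.5 (SD, 3 CL arrays), a ratio of 2.28, and the fitted log2 difference was 1.15 (SE 0.25), higher than that of 99.0% of the probe sets tested.

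S26 sits at the exit of the mRNA channel, where it touches the message upstream of the start codon. AT2G40510 had signals of 481.8 in CLL, 511.2 in CLM, 529.6 in CLH, 558.6 in CVL, 740.8 in CVM and 544.0 in CVH. The groups did not overlap, but the gap was narrow, with 544.0 as the lowest CV value and 529.6 as the highest CL value. The log2 difference of 0.26 (SE 0.23) was the smallest of the 7 and of about the size of its moderated SE. A further probe set, shared by AT2G40510 and its relative AT2G40590, read 252.9, 293.0 and 206.0 on CLL, CLM and CLH and 413.1, 544.4 and 274.3 on CVL, CVM and CVH. On that probe set the log2 difference was 0.66 (SE 0.24) and the groups overlapped, since CVH lay below CLM.

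S20, S25 and S12 belong to the head of the subunit, S12 to its beak. S20 is a universally conserved protein that has a bacterial counterpart. AT3G47370 had signals of 348.7 in CLL, 296.9 in CLM, 371.3 in CLH, 721.8 in CVL, 1024.7 in CVM and 455.1 in CVH. The CV arrays were all higher than the CL arrays, with CVM at 3.45 times CLM and CVH at 1.23 times CLH. The fitted log2 difference was 1.04 (SE 0.30).

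S25 has no bacterial counterpart and is known from yeast and mammalian cells for its part in initiation at internal entry sites of some viral RNAs. AT2G21580 had signals of 748.5 in CLL, 562.7 in CLM, 719.9 in CLH, 1108.3 in CVL, 1500.2 in CVM and 849.0 in CVH. Again the groups did not overlap, and CVH at 849.0 was the CV array nearest to the CL range. The log2 difference was 0.74 (SE 0.27).

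S12, which like S25 is absent from bacterial ribosomes, completes this group. AT2G32060 had signals of 321.9 in CLL, 206.7 in CLM, 256.2 in CLH, 537.8 in CVL, 622.2 in CVM and 309.6 in CVH. Here the groups overlapped, because CVH lay below CLL. The log2 difference was 0.86 (SE 0.29).

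S4 and S27 are further proteins of the body and platform of the subunit, and S27 carries a zinc finger. AT2G17360, the S4 gene, had signals of 450.4 in CLL, 550.0 in CLM, 536.8 in CLH, 842.9 in CVL, 995.0 in CVM and 450.3 in CVH. CVH was thus the lowest of the 6 arrays, level with CLL, and the groups overlapped. The log2 difference was 0.50 (SE 0.28).

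AT2G45710, the S27 gene, had signals of 25.4 in CLL, 30.1 in CLM, 56.3 in CLH, 80.3 in CVL, 109.5 in CVM and 27.3 in CVH. CVL and CVM lay above every CL array, and CVH lay below CLM and CLH. The log2 difference of 0.77 carried an SE of 0.48, and the residual SD of this gene (1.06 on the log2 scale, with 2 residual degrees of freedom) was the largest of the 7, the others lying between 0.18 and 0.52. The value was 0.29 without CLM or CVM and 1.63 without CLH or CVH.

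All 3 CV arrays were above all 3 CL arrays in 4 of the 7 genes (S2, S20, S25 and S26), against 425 of the 5773 probe sets tested (7.36%). In the 3 genes whose groups overlapped, S4, S12 and S27, CVH was the only CV array not above all CL arrays. In S12 it lay below CLL only. Without CLL the groups were apart in 5 of the 7 genes, and in 13.2% of the probe sets tested. Without CVH the remaining CV arrays were above all CL arrays in all 7 genes, and in 12.8% of the probe sets tested. With the shared S26 probe set in place of the other, the count over all arrays was 3 of 7. The median difference over the 7 genes was 0.77 with all arrays and 0.40 when CLM or CVM was left out.

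The size of the difference varied with the ending. At L the CV signal was at least 1.5 times the CL signal in 5 of the 7 genes (13.1% of all probe sets tested), and the median log2 difference was 0.90. At M this held for 6 of 7 (15.7% of all probe sets), with a median of 1.57. At H it held for 1 of 7, S2, against 20.4% of all probe sets, and the median was 0.24. S26 was the gene below that ratio at M, where its CV signal was 1.45 times that in CL. At H, S4 and S27 had a lower signal in CV, with log2 differences of -0.25 and -0.95. Each of these values compares 1 array with 1 array and has no replicate check.

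**Figure D2:**
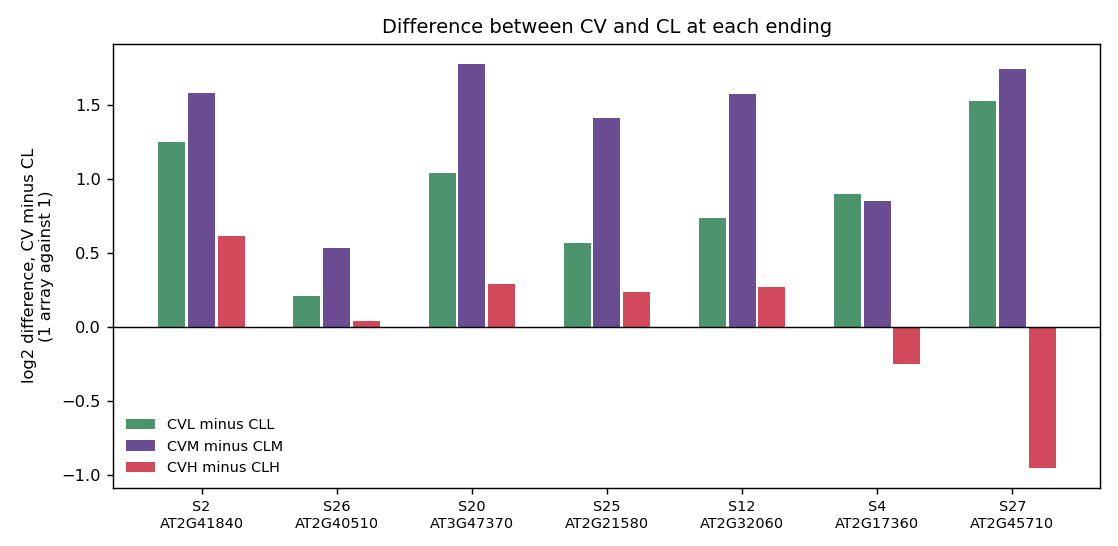
Log2 difference between the CV and the CL array of the same ending (vertical axis, bars from 0) for each of the 7 genes, with 1 bar per ending L, M and H and no error bars because each bar rests on 2 arrays. Bars at H are the shortest or point downwards, and the bar at M is the tallest in every gene except S4, where L (0.90) is slightly above M (0.85).

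Within CV, CVM exceeded CVL in all 7 genes, by 0.21 to 0.50 on the log2 scale. CVH was lower than CVM in all 7, with a median log2 difference of -0.998, and the signal was at least 1.5 times lower in 6 of the 7 against 13.3% of all probe sets tested. The exception was S26, whose CVH signal was 0.73 times that in CVM. S27 had the lowest ratio, at 0.25. Over all probe sets tested the median change from CVM to CVH was 0.16.

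Within CL, 6 of the 7 genes were higher in CLH than in CLM, with a median log2 difference of 0.30 over the 7, and S4 was at -0.03. The change from M to H thus had opposite signs in the 2 starts for every gene except S4. Whether the starts differ in this change was not tested, since no code had a second array. The largest change of the 7 within CL was that of S27, whose CLH signal was 1.87 times CLM. Over all probe sets tested the median change from CLM to CLH was -0.05. It was 0.15 in the other 40S genes, of which 4 of 11 were lower in CLH. In the 60S genes it was 0.06, and 14 of 33 were lower in CLH.

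**Figure D3:**
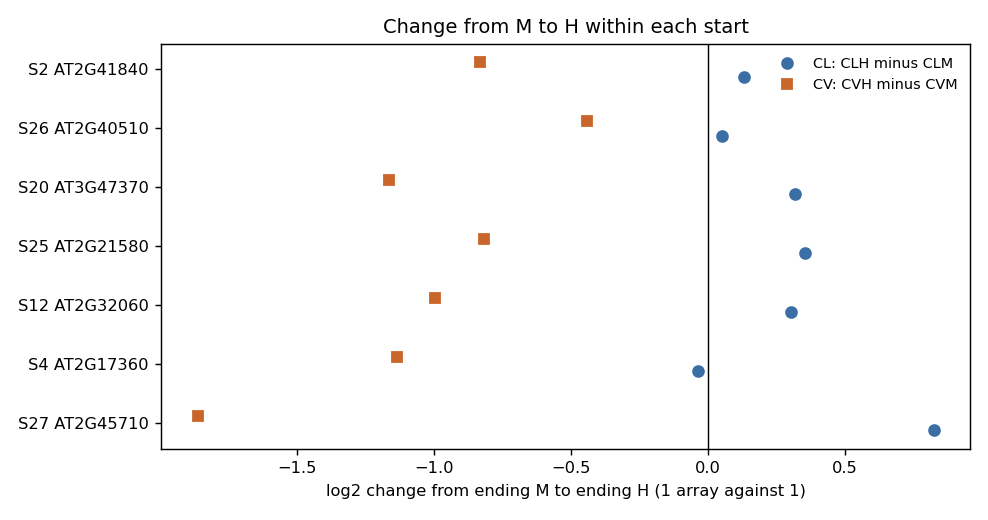
Log2 change from the M to the H array (horizontal axis) of each gene, with circles for CL and squares for CV, 1 array against 1 without error bars. All squares lie below 0, between -1.86 and -0.44, and all circles lie at -0.03 or above.

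Of the signs of RNA quality, the GAPDH ratio set the H arrays apart and the ubiquitin ratio did not. For GAPDH, the signal at the 3-prime end over that at the 5-prime end, a ratio that increases when RNA is degraded or incompletely copied, was 6.22 in CLH and 5.50 in CVH, and between 2.81 and 3.76 on the other 4 arrays. This ratio was higher at H than at M in both starts. The corresponding ubiquitin ratio was 3.18 in CLH and 2.31 in CVH, and 2.43 to 3.12 on the others. The control probe set for 25S ribosomal RNA read 455.2, 232.5 and 265.3 on CLL, CLM and CLH and 114.7, 363.6 and 141.2 on CVL, CVM and CVH. It did not follow the 7 genes, as CVL had the lowest value. What part RNA quality had in the differences was not tested.

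Array levels were then put in order for each gene and neighbouring arrays were compared with the residual spread of a difference between 2 arrays. Of the 35 gaps between neighbours, 3 were larger than that spread: CVM above CVL for S26, CVL above CLL for S12 and CVH above CLH for S2. The gap from the highest to the lowest array was larger than it in all 7 genes. By construction, neighbours in such an order lie close together and its ends lie far apart. That spread rests on 2 residual degrees of freedom, which also hold differences between the starts in their changes between endings. It rests too on the values by which the genes were chosen, so the counts are a description.

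The 7 genes had similar profiles. Over the 6 arrays, Pearson's r of the log2 signals ranged from 0.75 to 0.99 over the 21 pairs of genes, with a median of 0.86. The points of each correlation are the same 6 arrays, so these values describe shared arrays as much as shared genes. Against the mean of the other 6 genes, S20 had the highest r (0.99), and S27 (0.86) and S26 (0.88) the lowest. Averaged over the genes and centred on each gene's mean, the log2 level was -0.41 in CLL, -0.50 in CLM, -0.23 in CLH, 0.48 in CVL, 0.85 in CVM and -0.19 in CVH. The level in CVH was thus nearer to the CL arrays than to the other CV arrays. The amplitude differed between genes, with an SD over the arrays of 0.22 for S26 and of 0.82 for S27.

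The other cytosolic 40S genes were taken from a list of 94 loci for 32 proteins, of which 12 besides the 7 had their own probe set and 11 passed the filter. All 11 had a higher fitted level in CV (median 0.65, from 0.01 to 0.98), as did 2338 of the 5773 probe sets tested. In 5 of the 11 all CV arrays were above all CL arrays, against 7.36% of all probe sets. None passed the limma test adjusted over all probe sets, which called 2 of 5773 (0.0346%), both lower in CV and neither with a gene listed. At an unadjusted p under 0.05, 7 of the 11 were higher in CV and 0 lower, against 5.56% of all probe sets higher in CV. The genes share the same arrays and were listed with earlier results known, so these counts are a description. As in the 7 genes, the difference was largest at M (median 1.28) and smallest at H (0.15), with 0.67 at L.

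The largest differences among these were those of the S18 gene AT1G34030 (0.98, SE 0.37), the S30 gene AT2G19750 (0.88, SE 0.42) and the S14 gene AT3G52580 (0.80, SE 0.25). S14 is a conserved protein of the subunit's platform. AT3G52580 had signals of 281.1, 268.0 and 213.9 on CLL, CLM and CLH and 501.6, 615.1 and 283.6 on CVL, CVM and CVH, so its groups were only just apart. The smallest were those of AT2G16360, a second S25 gene, AT2G40590, a second S26 gene (0.51, SE 0.25), and AT2G09990, an S16 gene (0.56, SE 0.24). The gene left out for its low mean was AT2G39590, for S15A, with signals from 2.4 to 11.2. A probe set shared by the S17 genes AT2G05220 and AT2G04390 read 340.6, 396.2 and 365.5 in CL and 593.7, 789.9 and 342.5 in CV at L, M and H.

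**Figure D4:**
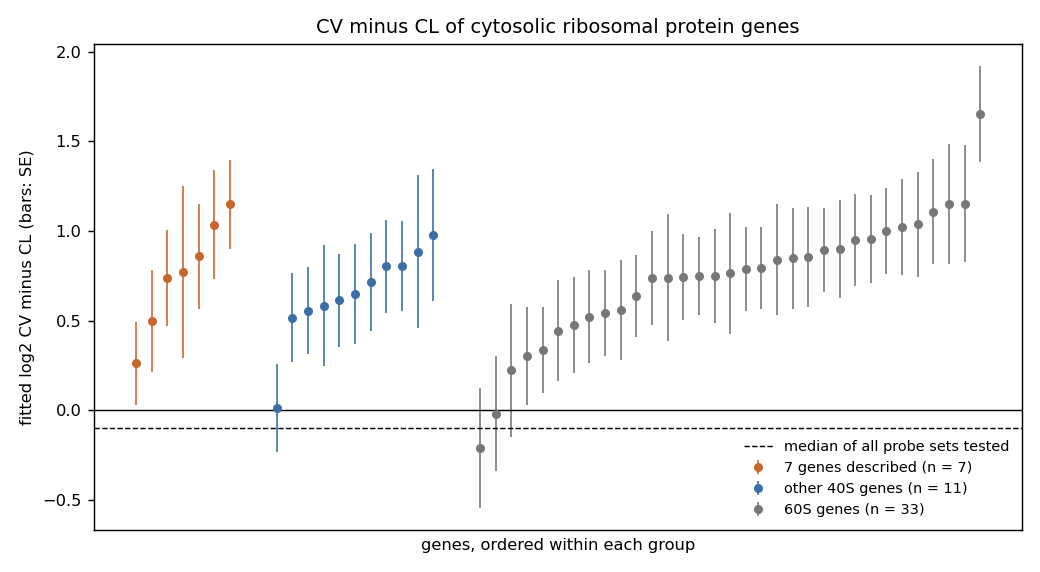
Fitted log2 difference of CV from CL (vertical axis; bars are the SE from the fit over 3 CV and 3 CL arrays) for the 7 genes described, 11 other 40S genes and 33 60S genes, ordered by size within each group. Nearly all points lie above 0 and above the dashed line at -0.10, the median of all probe sets tested; the 7 genes overlap in range with both other groups.

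For 2 of the 7 proteins a second gene had its own probe set. The S25 genes differed in pattern: AT2G16360 read 42.0, 27.6 and 36.7 on CLL, CLM and CLH and 36.1, 32.9 and 37.0 on CVL, CVM and CVH. Its groups overlapped, with a fitted difference of 0.01 (SE 0.25), where AT2G21580 had 0.74. AT2G16360 was also far dimmer, near the array medians of 20.0 to 26.2, where AT2G21580 read 562.7 to 1500.2. The patterns are thus compared at unlike signal levels, and the difference between the paralogues was not tested. The S26 genes were alike in having CVM highest and no overlap between the groups. AT2G40590 read 103.3, 101.2 and 99.1 in CL and 139.1, 185.4 and 121.1 in CV at L, M and H. From L to H in CL it fell slightly, where AT2G40510 rose slightly. Its fitted difference was 0.51, against 0.26 for AT2G40510. Probe sets of such near-identical genes can also take up transcripts of their relatives, and no probe sequences were used here. The families of the other 5 proteins have 2 to 4 listed genes each, of which only the gene described had its own probe set.

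**Figure D5:**
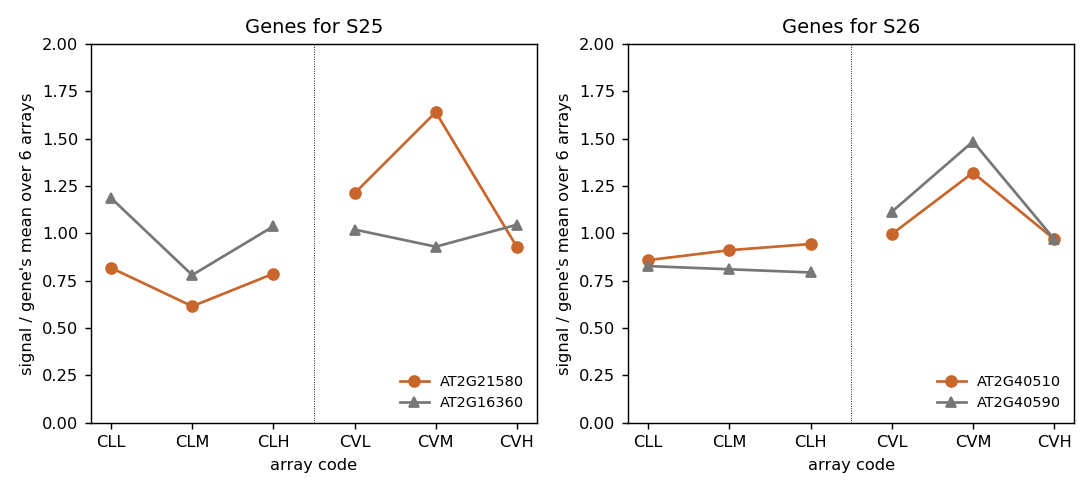
Signal divided by the gene's own mean over the 6 arrays (vertical axes, from 0) by array code for the S25 genes AT2G21580 and AT2G16360 (left) and the S26 genes AT2G40510 and AT2G40590 (right), 1 array per point. AT2G21580 peaks on CVM while AT2G16360 stays near 1 on the CV arrays, and both S26 genes peak on CVM.

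The 60S subunit forms the peptide bonds. Of 36 cytosolic 60S genes with their own probe set 33 were tested, and 31 of them had a higher fitted level in CV (median 0.76, from -0.21 to 1.65). The largest were AT4G17390, for L15 (1.65, SE 0.27), and AT2G44120, for L7 (1.15, SE 0.32). All 3 CV arrays were above all 3 CL arrays in 20 of the 33 (7.36% of all probe sets tested), and CVM came first and CVL second in 29 (5.70% of all). None passed the limma test adjusted over all probe sets, and 21 were higher in CV at an unadjusted p under 0.05, against 5.56% of all probe sets. Within CV, 32 of the 33 were lower in CVH than in CVM, with a median of -0.98 beside -0.998 in the 7 genes.

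Other genes of ribosome production were few on the arrays. AT5G27120, which encodes a core protein of the small nucleolar particles that guide ribosomal RNA methylation, was the only one of 8 listed biogenesis genes with its own probe set. It read 21.3, 11.2 and 39.3 on CLL, CLM and CLH and 40.2, 68.1 and 30.9 on CVL, CVM and CVH, a log2 difference of 0.92 (SE 0.44) with overlapping groups. EIF4A-2 (AT1G54270), an RNA helicase of translation initiation, had 0.35 (SE 0.23), and its highest arrays were also CVM and CVL. The 2 genes for plastid ribosomal proteins, AT4G01310 and AT2G43030, had 0.72 (SE 0.25) and 0.62 (SE 0.23), with CVL and not CVM as their highest array. None of these 4 passed the limma test adjusted over all probe sets. Of 6 genes of dividing cells only the histone H4 gene AT2G28740 had its own probe set. Whether that probe set reads this gene alone was not checked, as no probe sequences were used. The probe set read 217.5 to 255.2 in CL and 270.8 to 289.1 in CV, with CVH as its highest array. Its log2 difference of 0.24 (SE 0.23) was of about the size of its SE. All CV arrays lay above all CL arrays in 7.36% of all probe sets tested. No listed gene of the TOR kinase pathway or of the RACK1 family was measured under a name.

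The genes whose profile was most like the mean of the 7 were searched among 1581 genes that varied by an SD of at least 0.3 over the 6 arrays. The 10 with the highest Pearson's r over the 6 arrays had r from 0.98 to 1.00 and were, in order, AT1G70600 (L27A), AT2G09990 (S16), AT1G04480 (L23), AT2G25210 (L39), AT2G36160 (S14), AT2G27720 (P2), AT4G27090 (L14), AT2G01250 (L7), DAL1 and AT2G19730 (L28). Of these, 9 are on the list of cytosolic ribosomal proteins, which holds 42 of the 1581 genes searched. AT1G70600, the closest, had signals of 797.8, 742.4 and 886.0 on CLL, CLM and CLH and 1511.2, 2109.8 and 983.3 on CVL, CVM and CVH. DAL1 had 266.8, 284.5 and 343.2 in CL and 499.5, 639.5 and 292.2 in CV.

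By their locus codes, 6 of the 7 genes lie on chromosome 2 and 1 on chromosome 3, on arrays where 37.1% of the named genes come from chromosome 2 and 4.80% from chromosome 3. Genes within 2 places of the 7 along the chromosome were described beside them, and 11 such neighbours were tested. None had all CV arrays above all CL arrays, against 7.36% of all probe sets tested, and 11 genes are too few to tell these apart. Their fitted differences ran from -0.72 to 0.54 with a median of -0.16, beside -0.10 over all probe sets tested. The S26 genes AT2G40510 and AT2G40590 are separated by 7 protein-coding genes.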

How the data were processed

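The authors deposited 1 linear intensity per probe set and array. These had been scaled to a common level, as the values show: with 2% trimmed at both ends, the mean was 100.2 on each array. The sources used here do not name the software or a genome build. Signals were analysed as log2(value + 3.9), the offset being the 20th percentile of all values, so differences of dim probe sets are understated. After setting aside 50 control probe sets and the 30% with the lowest mean, 5773 were fitted in limma (version 3.58.1, R 4.3.3) with start and ending as additive terms and an intensity trend, leaving 2 residual degrees of freedom, with Benjamini-Hochberg adjustment and a threshold of 0.05. The fit was run on simulated data with changes larger than those of the genes described, a common spread and no ending effects. That run does not bear on differences of the size described here. Nothing says whether samples came from separate cultures, so the array-to-array spread may be technical. With 1 array per code, the residual also holds any difference between CL and CV in their changes between endings. Errors and p-values reflect both together.

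Genes were named through gene identifiers in the TAIR10.1 table, used for names and gene order only. Of the probe sets, 3794 had 1 gene, 70 several and 4383 none. Where a gene had several probe sets, that of highest mean signal stood for it. Protein names follow a hand-written list of cytosolic ribosomal protein loci, since the tables give few; that list, the plastid ribosomal genes, EIF4A-2 and the photosystem genes were put together after the tables were opened. The genes and lists were chosen with earlier results of these data known. Named were all 7 genes, the 3 largest and 3 smallest differences of the other 40S genes, the 2 largest of each other list, and the 10 most similar profiles; single genes of exception were named after their values were seen. No sequences were used here. Alternatives were other offsets, filters and normalizations, no trend, no ending term, another S26 probe set and leaving out arrays.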

Additional observations from a re-analysis of the deposited data

Results flagged for a closer look

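Between endings, several of the 7 genes had changes of opposite sign in CL and CV. Each change compares 1 array with 1 array, and the differences between CL and CV were not tested. From M to H the change in CV minus the change in CL was, on the log2 scale, -2.69 for AT2G45710 (S27), -1.48 for AT3G47370 (S20), -1.30 for AT2G32060 (S12), -1.17 for AT2G21580 (S25), -0.97 for AT2G41840 (S2) and -0.49 for AT2G40510 (S26). In each of these the CL change was above 0, from 0.05 in S26 to 0.82 in S27, and the CV change below 0. From L to M the corresponding value was 0.84 for AT2G21580, 0.84 for AT2G32060 and 0.73 for AT3G47370, with a lower signal at M in CL and a higher one in CV. The changes from L to M and from M to H share the M arrays, so they are not independent.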

How the results depend on the processing

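The median fitted difference was 0.40 to 1.15 for the 7 genes under the alternatives tried, and 0.37 to 0.92 for the other 40S genes. Both kept their sign under the other offsets, normalizations and left-out arrays. The median changes from M to H (-1.27 to -0.91 in CV, 0.27 to 0.35 in CL) kept theirs under the other offsets and normalizations. Each of those changes compares 1 array with 1 array, so leaving out any other array could not alter it. With 1 array left out, the differences of single genes were 0.93 to 1.41 for AT2G41840, 0.67 to 1.41 for AT3G47370, 0.50 to 1.15 for AT2G32060, 0.40 to 0.99 for AT2G21580, 0.30 to 0.87 for AT2G17360, 0.29 to 1.63 for AT2G45710 and 0.13 to 0.37 for AT2G40510; all kept their sign. The highest value of each came without CLH or CVH and the lowest without CLM or CVM, except in AT2G17360, where it came without CLL or CVL. Leaving out 1 array also takes its partner of the same ending out of the difference, so both give the same value. The shared S26 probe set gave 0.66 in place of 0.26. Median centring moved the median difference of all probe sets from -0.10 to 0.04. The number of the 7 genes with all CV arrays above all CL arrays was 3 with the shared S26 probe set, 4 to 7 with 1 array left out (7 without CVH), and 7 without both H arrays, an alternative chosen after seeing the data; with fewer arrays non-overlap is easier to reach. Over all probe sets that count was 425 and became 655 after median centring. It was 581 to 762 with 1 array left out, and 928 (16.1% of those tested) without both H arrays. The number of probe sets called by limma was 2, became 0 after median centring, without the intensity trend and without the ending term, and was 1 to 257 with 1 array left out, where 1 residual degree of freedom remains. The fit already paired the CL and CV arrays by ending.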
